A study of Mus musculus with 1920 samples.

Results

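Transcripts of 9 genes used to tell macrophages of the brain's borders and blood monocytes from microglia were measured in single cells sorted as microglia. The genes were Mrc1, Ms4a7, Dab2, Cd163 and Pf4, taken here as border macrophage markers, and Ccr2, Ly6c2, Lyz2 and F13a1, taken here as monocyte markers. They were chosen by name and found by their Ensembl identifiers on mouse build GRCm38, and they are 9 of the 48709 gene entries of the count table. The cells came from CD1 mice aged 16 weeks. Untreated mice gave 6 regions, namely cortex, hippocampus and cerebellum, the corpus callosum, the spinal cord, and the facial nucleus. The facial nucleus was also sampled on days 3 and 14 after facial nerve axotomy, in which the nerve is severed, and the corpus callosum in the demyelination and remyelination stages of the cuprizone model, in which a copper chelator kills the cells that make myelin. The tissue label of the axotomy samples reads facial nerve and their source label facial nucleus. Each of the 10 groups had 4 replicates, treated here as mice. The design text gives 3 or 4 mice per condition where the labels number 4 replicates, and the labels do not give how long cuprizone was fed. The sort used antibodies to CD11b and CD45, to CD206, and to Ly6C and Ly6G, with gates not stated in the sources used here.

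Microglia are the macrophages of the brain tissue itself. Border macrophages live in the meninges, the choroid plexus and the spaces around blood vessels, and monocytes are blood cells that can enter tissue and become macrophages. In the resting brain the 9 genes serve as labels for these other cells because their transcripts are scarce in microglia. Several of them also answer to the state of a macrophage: lysozyme, for example, is a general product of phagocytes that are active in clearing bacteria and debris. In cuprizone demyelination, microglia of the corpus callosum take up large amounts of myelin debris.

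Of 1900 wells labelled as cells, 1644 passed the filters, with 129 to 181 per group. Adding up their counts by mouse and group gave 40 sums of 5298853 to 19964472 counts. Levels below are reads per 1000000 counts of these sums (CPM), scaled across all groups, as mean ± SD over 4 mice. Demyelination and remyelination shared 1 plate of 384 wells, both axotomy days another, and the untreated regions 3 more with 2 regions each. An injured group and its untreated region therefore lay on different plates, and plate and injury cannot be told apart in those comparisons. The labelled cell type was checked against genes of resting microglia. In the 8 groups outside cuprizone, the purinergic receptor gene P2ry12 was read in 1353 of 1354 cells and Tmem119 in 1348. In the cuprizone groups P2ry12 was read in 234 of 290 cells and Tmem119 in 156. The median cell had 1517 detected genes in remyelination, 2137 in demyelination and between 2328 and 2958.5 in each other group, and 67.9% of remyelination wells were kept against 81.1% to 95.3% elsewhere. A sum over cells cannot tell fewer cells of a type from less RNA per cell.

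Lyz2 dominated the set. Lyz2 (ENSMUSG00000069516, chromosome 10, 117277334 to 117282274, minus strand) encodes lysozyme M, the enzyme that breaks bacterial cell walls and is made by monocytes, macrophages and neutrophils. In the demyelinated corpus callosum its level was 15369, 9008, 8248 and 11472 CPM in mice 1 to 4, and in remyelination 15759, 14770, 28092 and 7760 CPM. The untreated corpus callosum held 412, 132, 156 and 77.8 CPM. The lowest cuprizone mouse thus stood far above the highest untreated mouse, and the groups did not overlap. Their means were 11024 ± 3207 CPM in demyelination, 16595 ± 8451 in remyelination and 194.5 ± 149 in untreated corpus callosum, ratios of 56.7 and 85.3. Per kilobase of transcript, the only scale on which genes are compared here, Lyz2 stood at 8708 ± 2533 CPM per kilobase in demyelination, where Dab2 stood at 34.7 ± 11.8, Pf4 at 33.2 ± 38.2 and Ms4a7 at 2.93 ± 2.40.

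Both cuprizone phases differed from untreated corpus callosum in Lyz2 by more than the spread between mice. The log2 fold change was 5.80 ± 0.51 (SE) in demyelination (adjusted p = 3.31e-06, edgeR's quasi-likelihood test) and 6.41 ± 0.53 in remyelination (adjusted p = 2.85e-06). Between the phases it was 0.61 ± 0.42 (adjusted p = 0.616), a difference that did not pass the test. Outside cuprizone, the order of the means ran from axotomy day 3 (519.5 ± 119 CPM) and day 14 (341.5 ± 302) through corpus callosum, cerebellum (174.5 ± 14.8), hippocampus (147.7 ± 76.5), spinal cord (136.1 ± 40.8) and facial nucleus (110.8 ± 51.3) to cortex (42.2 ± 18.2). Among neighbours in the whole order of 10, demyelination and axotomy day 3 alone lay further apart than the sum of their SDs.

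**Figure D1:**
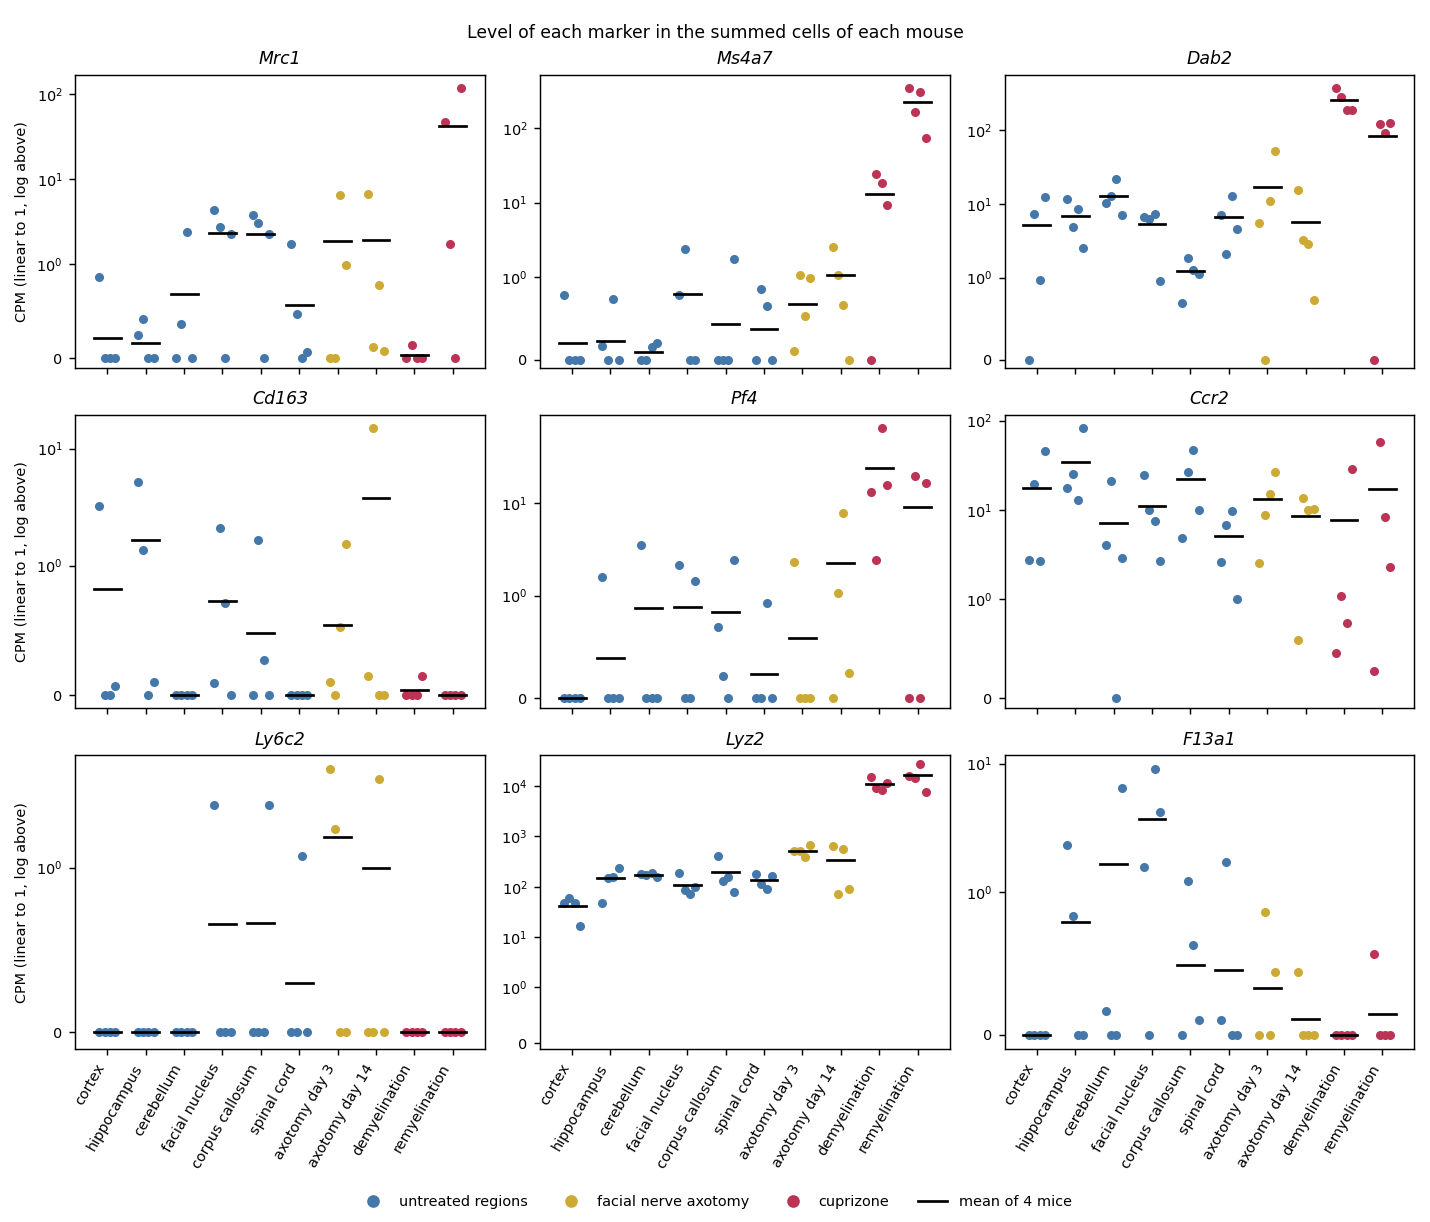
Level of each of the 9 markers in CPM (vertical axis, linear up to 1 and logarithmic above) in the summed cells of each mouse (points) in the 10 groups, with the mean of 4 mice as a line. Lyz2 stands at 7760 CPM or more in the cuprizone sums and at 678 CPM or less in all others, while Cd163, Ly6c2 and F13a1 lie at or near 0 in most sums.

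The stretch of 250 bases before the RefSeq start of Lyz2 is shown beside that of Lyz1, the neighbouring gene for lysozyme P, because both transcripts were high in the cuprizone groups and because the genes are near copies of each other. They are read on build GRCm38.p6, minus strand, from chr10:117282273-117282522 and chr10:117292869-117293118. Capitals mark matches to an ETS core (GGAAGT on either strand, the kind of site read by the macrophage factor PU.1 and its relatives) and to a C/EBP motif (TTNNGCAA on either strand).
Lyz2: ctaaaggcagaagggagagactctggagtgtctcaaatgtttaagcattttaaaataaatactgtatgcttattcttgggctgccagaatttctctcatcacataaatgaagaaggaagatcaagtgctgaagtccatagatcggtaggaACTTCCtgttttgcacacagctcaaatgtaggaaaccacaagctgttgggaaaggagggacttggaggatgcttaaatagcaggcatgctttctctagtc
Lyz1: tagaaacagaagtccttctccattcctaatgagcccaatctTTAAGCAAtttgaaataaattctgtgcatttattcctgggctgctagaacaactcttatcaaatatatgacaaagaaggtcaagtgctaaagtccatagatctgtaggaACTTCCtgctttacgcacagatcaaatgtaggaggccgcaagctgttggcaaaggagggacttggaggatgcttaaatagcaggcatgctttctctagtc
The ETS core begins 100 bases before the start in both. The 2 stretches are identical at 152 of 250 positions and at 92 of the last 100. Of 32851 promoter stretches of the same length, 19.7% hold the ETS core and 9.56% the C/EBP motif, so a match by itself describes the letters and no more.

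Lyz1, known as the lysozyme of the intestine, had 0 reads in all 4 untreated corpus callosum mice and 4.83 to 33.3 CPM in demyelination (mean 13.95 ± 13.1 CPM, at least 193-fold higher against a floor of 3 counts over the group). In remyelination it reached 6.80 to 136 CPM (49.8 ± 59.8, at least 689-fold higher), and both differences passed the test (adjusted p = 0.0104 and 0.00554). Of the 1267 stretches of 50 bases along the Lyz2 transcripts, 15.4% are also found in Lyz1. Reads from such stretches can have been lost or given to either gene, so Lyz1 beside the far higher Lyz2 is uncertain.

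Dab2 rose in both cuprizone phases. Dab2 (ENSMUSG00000022150, chromosome 15, 6299788 to 6440712, plus strand) encodes an adaptor that gathers receptors into clathrin-coated pits for uptake. Its level in demyelination was 368.1, 278, 185 and 189 CPM in mice 1 to 4, against 0.692, 1.87, 1.26 and 1.12 CPM in untreated corpus callosum. Remyelination gave 0, 121, 89.6 and 123 CPM, so that 3 mice lay between the other groups and mouse 1 had no read. The log2 fold change was 7.64 ± 1.30 in demyelination (ratio of means 206, adjusted p = 0.00203) and 6.04 ± 1.21 in remyelination (ratio 67.4, adjusted p = 0.00892), both by edgeR. From demyelination to remyelination it was -1.60 ± 0.99 (adjusted p = 0.544). In the other 7 groups besides untreated corpus callosum, Dab2 means lay between 5.12 ± 5.72 CPM in cortex and 17.1 ± 23.7 at axotomy day 3, where mouse 4 alone held 52.0 CPM. Untreated corpus callosum, at 1.24 ± 0.488 CPM, had the lowest mean of the 10 groups, which enlarges the ratios.

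Ms4a7 stood out in remyelination. Ms4a7 (ENSMUSG00000024672, chromosome 19, 11321039 to 11336146, minus strand) encodes a tetraspan membrane protein used as a marker of macrophages that did not arise as microglia. Remyelination gave 344, 165, 301 and 73.3 CPM in mice 1 to 4 (221 ± 125), and demyelination 0, 24.5, 18.4 and 9.33 CPM (13.05 ± 10.7). In untreated corpus callosum mouse 4 had 1.73 CPM from 17 reads and the others had none. The remyelination mice all lay above the demyelination mice. Against untreated tissue the log2 fold change was 8.94 ± 1.82 in remyelination (ratio of means 510, adjusted p = 0.00972) and 4.83 ± 1.54 in demyelination (ratio 30.1, adjusted p = 0.0735). By edgeR without the filter on low counts and by DESeq2, demyelination was called (adjusted p = 2.11e-05 and 0.0207). In the filtered fit it passed without its mouse 1 (adjusted p = 0.0370) or without untreated mouse 4 (adjusted p = 0.0215). The phases themselves differed by 4.11 ± 1.45 on the log2 scale, short of the threshold (adjusted p = 0.290). In the 8 groups outside cuprizone the mean of Ms4a7 never passed 1.06 ± 1.06 CPM, the value at axotomy day 14.

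The same stretch of 250 bases is shown for Dab2 (chr15:6299539-6299788, plus strand) and Ms4a7 (chr19:11336147-11336396, minus strand), the border macrophage markers that rose in a cuprizone group, at the first of the 2 starts that RefSeq gives for each.
Dab2: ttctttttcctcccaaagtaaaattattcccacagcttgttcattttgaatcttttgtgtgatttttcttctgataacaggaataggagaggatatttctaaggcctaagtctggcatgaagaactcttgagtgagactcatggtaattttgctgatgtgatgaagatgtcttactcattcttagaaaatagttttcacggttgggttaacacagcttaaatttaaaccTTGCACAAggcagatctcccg
Ms4a7: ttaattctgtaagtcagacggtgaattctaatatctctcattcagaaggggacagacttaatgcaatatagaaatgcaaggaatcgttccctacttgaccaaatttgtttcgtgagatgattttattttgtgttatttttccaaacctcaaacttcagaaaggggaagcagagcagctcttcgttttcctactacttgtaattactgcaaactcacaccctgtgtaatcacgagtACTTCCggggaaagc
In Dab2 the capitals mark a C/EBP match that begins 21 bases before the start, and in Ms4a7 an ETS core 15 bases before it. Over all 9 markers and their 13 stretches, 6 markers had an ETS core, 2 a C/EBP match and 1, Ms4a7 at its other start, a match to the AP-1 motif TGANTCA, which 6.75% of all stretches hold. None of these matches overlapped another.

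Mrc1 in remyelination and Pf4 in both cuprizone groups varied widely between mice. Mrc1 (ENSMUSG00000026712, chromosome 2, 14229392 to 14332057, plus strand) encodes CD206, the mannose receptor that takes up sugar-coated particles and was stained for the sort. Remyelination gave 47.0, 1.74, 0 and 118 CPM in mice 1 to 4, and of 1527 Mrc1 reads there 1178 came from 1 cell of mouse 4 and 333 from 1 cell of mouse 1. In demyelination 2 reads were found in all 4 mice together, while untreated corpus callosum had 94 reads in 3 mice (2.28 ± 1.65 CPM). Against untreated tissue the log2 fold change of Mrc1 was -5.59 ± 2.28 in demyelination (adjusted p = 0.158) and 4.17 ± 2.10 in remyelination (adjusted p = 0.310), and neither passed by edgeR. DESeq2 called the demyelination difference (log2 fold change -6.21, adjusted p = 0.0311).

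Pf4 (ENSMUSG00000029373, chromosome 5, 90772435 to 90773383, plus strand) encodes platelet factor 4, a chemokine stored in platelets and also made by border macrophages. In demyelination it stood at 13.04, 2.45, 64.4 and 15.8 CPM in mice 1 to 4, each at or above the highest untreated corpus callosum mouse, 2.45 CPM. Remyelination gave 0, 19.4, 0 and 16.5 CPM. The log2 fold changes against untreated tissue, 4.76 ± 2.26 (adjusted p = 0.251) and 3.36 ± 2.12 (adjusted p = 0.457), did not pass. The 8 platelet genes beside it, among them Ppbp and Gp1ba at 0 reads in both cuprizone groups, summed to 4.56 ± 4.00 CPM in demyelination (0.735 to 9.31 over mice) and 15.1 ± 20.0 in remyelination (0 to 42.1). In untreated corpus callosum that sum was 78.6 ± 42.0 CPM (26.8 to 130), with 7 of 8 genes read and Ppbp at 0 reads there too.

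Cd163 (ENSMUSG00000008845, chromosome 6, 124304656 to 124330527, plus strand), the receptor gene for haemoglobin bound to haptoglobin and a defining gene of perivascular macrophages, had 319 reads in all kept cells. It had no read in cerebellum, spinal cord or remyelination and 2 in demyelination. Its highest mean, 3.76 ± 7.43 CPM at axotomy day 14, came from mouse 2, which held 125 of the 126 reads of that group in 14.9 CPM. The low-count filter left Cd163 out of the axotomy and cuprizone tests.

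Ccr2 was the monocyte marker that many cells carried at a very low level. Ccr2 (ENSMUSG00000049103, chromosome 9, 124101950 to 124113557, plus strand) encodes the receptor by which monocytes follow the chemokine CCL2 into tissue. Its means over the 10 groups ran from 34.3 ± 31.9 CPM in hippocampus and 22.3 ± 19.2 in corpus callosum down to 7.06 ± 9.67 in cerebellum and 5.07 ± 4.00 in spinal cord, with no neighbouring pair in the order further apart than the sum of its SDs. Demyelination gave 0.459, 1.08, 0.763 and 28.7 CPM and remyelination 0.282, 57.0, 8.38 and 2.30 CPM. In each of these groups 1 mouse stood apart, and in demyelination 1 cell of mouse 4 held 377 of the 408 Ccr2 reads. Against untreated corpus callosum the log2 fold changes, -1.54 ± 1.69 and -0.39 ± 1.66, did not pass the test (adjusted p = 0.702 and 0.946).

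The ligands Ccl2 and Ccl12 had their highest means in the axotomy groups, on another plate than untreated facial nucleus. Ccl12, a mouse ligand of the receptor, was at 423, 209, 300 and 363 CPM in the mice of axotomy day 3 and between 5.15 and 108 CPM in untreated facial nucleus. On day 14 mouse 3 stood at 1145 CPM and the others between 7.87 and 196 CPM. Neither day passed the test for Ccl12 (log2 fold change 2.85 ± 1.20, adjusted p = 0.517, and 2.93 ± 1.21, adjusted p = 0.727), and of the 3 ligand genes Ccl2, Ccl7 and Ccl12 none passed in any comparison by edgeR.

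Ly6c2 and F13a1, which mark inflammatory monocytes, were nearly absent. Ly6c2 (ENSMUSG00000022584, chromosome 15, 75108158 to 75111970, minus strand) encodes Ly6C2, part of the Ly6C antigen stained for the sort. It had 167 reads in 8 of 1644 cells and none in cortex, hippocampus, cerebellum, demyelination or remyelination. For 161 demyelination and 129 remyelination cells a count of 0 allows a share of cells with a read of up to 1.86% and 2.33%. Its transcript shares 13.9% of its stretches of 50 bases with Ly6c1, an endothelial gene, so a low count of Ly6c2 is uncertain in either direction. F13a1 (ENSMUSG00000039109, chromosome 13, 36867178 to 37050244, minus strand), which encodes the A subunit of clotting factor XIII and is found in monocytes, macrophages and platelets, had 342 reads in 23 cells. Its highest mean was in facial nucleus, 3.71 ± 3.99 CPM, and it had no read in demyelination and 4 reads in remyelination.

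Read over all genes tested, the calls among the markers were as follows. Against untreated corpus callosum, 2 of 9 markers were higher in demyelination (Dab2 and Lyz2), where 5.16% of 14057 genes were called in either direction and 3.08% as higher. In remyelination 3 of 9 were higher (Ms4a7, Dab2 and Lyz2), where 3.12% of genes were called and 2.51% as higher. In both comparisons 6 markers passed the low-count filter, some of them through the injured group alone, and edgeR called none lower, while DESeq2 called Mrc1 lower in demyelination. The 2 comparisons share their untreated mice. Between remyelination and demyelination, which shared a plate, edgeR called none of the 6 markers and 0.0427% of genes. By edgeR 2 of these markers, Mrc1 and Ms4a7, had an unadjusted p under 0.05, as had 1985 of the 14057 genes. DESeq2 called Mrc1, and 596 genes in all.

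**Figure D2:**
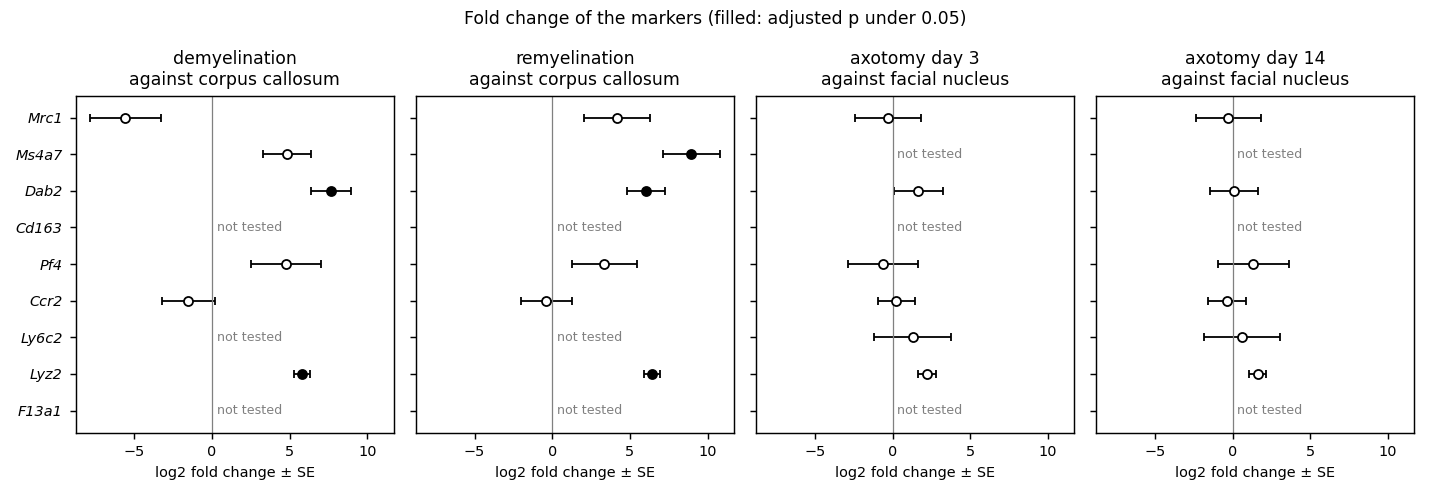
Log2 fold change ± SE of each marker (rows) in demyelination and remyelination against untreated corpus callosum and on axotomy days 3 and 14 against untreated facial nucleus; filled points have an adjusted p under 0.05 in edgeR, and markers removed by the low-count filter are written as not tested. Filled points are Dab2 and Lyz2 in demyelination and Ms4a7, Dab2 and Lyz2 in remyelination, at log2 values between 5.80 and 8.94.

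Other genes of the same cell types gave a mixed picture in cuprizone. Of 18 other border macrophage genes 7 could be tested in each phase. Colec12, a scavenger receptor gene, was the one called, at 148 ± 29.6 CPM in demyelination and 150.3 ± 65.5 in remyelination against 1.59 ± 1.58 (log2 fold change 6.48 ± 0.99 and 6.53 ± 0.99, adjusted p = 0.000756 and 0.000837). Of the 18 genes, 11 were read in demyelination and 12 in remyelination, against 17 in untreated corpus callosum. Lyve1, Cd209f and Fcna were among those with no read in either phase. Zeros were not particular to cuprizone: untreated cortex had no read of Cd209f or Fcna, and untreated hippocampus none of Lyve1 or Cd209f. The list's summed level was 440 ± 116 CPM (358 to 610) in demyelination and 459 ± 134 (301 to 613) in remyelination. In untreated corpus callosum it was 185 ± 87.2 (125 to 314). The median log2 fold change of the tested genes was 2.00 and 1.89, against -0.33 and -0.31 over all genes tested. The low-count filter left out 11 of the 18 genes, and a gene can pass it through an injured group alone. These medians therefore describe the tested genes and not the list.

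Of 22 other monocyte genes 12 were tested and 3 were higher in each phase. Fn1, the fibronectin gene, was 1302, 907, 562 and 2089 CPM in demyelination against 1.02 to 12.3 CPM untreated (log2 fold change 7.77 ± 1.32, adjusted p = 0.00237). In remyelination Fn1 was 0.563, 106, 310 and 47.8 CPM (4.37 ± 1.13, adjusted p = 0.0488), with mouse 1 below the untreated mice. Vim, the intermediate filament gene vimentin, and Crip1, a small zinc-binding protein gene, were the others, with log2 fold changes of 4.21 and 3.66 in demyelination and 4.67 and 4.01 in remyelination. All 3 are also expressed by activated macrophages. The list's summed level was 1615 ± 719 CPM in demyelination and 663 ± 216 in remyelination against 135 ± 36.0 untreated. Of the genes Chil3, Hp and Ifitm6, which mark classical monocytes, none had a read in demyelination, and in remyelination Chil3 had 8 reads, Ifitm6 had 1 and Hp had 0. The median of the tested genes was 1.28 and 1.94 on the log2 scale. The low-count filter left out 10 of the 22 genes, so these medians too describe the tested genes and not the list.

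Among 14 relatives and neighbours of the markers, 8 were tested. Lyz1 (described above) and Ms4a6c, a family member of Ms4a7, rose in both phases, Ms4a6c by 2.91 ± 0.56 and 3.66 ± 0.57 on the log2 scale (adjusted p = 0.00521 and 0.00115).

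Resting microglia genes were lower in the same sums. Of 12 such genes 8 fell in demyelination and 1, Sparc, rose, and 7 fell in remyelination, Sparc among them. The largest falls on the log2 scale were those of the sugar transporter gene Slc2a5 (-3.48 and -2.62), Tmem119 (-2.98 and -2.76), P2ry13 (-2.23 and -1.62), Siglech (-1.91 and -1.60) and P2ry12 (-1.81 and -1.95). Their summed level was 35072 ± 5287 CPM and 29575 ± 4492 against 46387 ± 1112 CPM untreated. Neutrophils also make lysozyme. The 10 neutrophil genes summed to 511 ± 74.6 and 538 ± 118 CPM against 646 ± 117, and none of the 3 tested was called. Ly6g, Retnlg and Cxcr2 had 0 reads in both phases, and Cxcr2 also had 0 in untreated corpus callosum. S100a8 and S100a9 had reads in demyelination and 0 in remyelination, and S100a8 had 0 untreated. Of 7 endothelial genes 4 were tested and Flt1 was called, in remyelination (log2 fold change 3.53 ± 0.91, adjusted p = 0.0452). The endothelial list summed to 169 ± 80.1 CPM in demyelination (85.1 to 264 over mice) and 239 ± 154 in remyelination (46.2 to 392), against 37.1 ± 23.2 untreated (17.4 to 67.6), with Ly6c1 at 0 reads in both phases. No gene of the dendritic, T and NK, B or erythroid lists was called in either phase. In demyelination, remyelination and untreated corpus callosum, the dendritic genes summed to 6.63, 21.5 and 53.4 CPM. The T and NK genes summed to 14.5, 4.51 and 11.7 CPM in the same order. For the B genes the sums were 398, 270 and 630 CPM, and for the erythroid genes 0.0191, 1.78 and 2.79 CPM. The part of any of these cell types, of the microglia genes that fell, or of the fewer genes per cell, in the Lyz2, Dab2 and Ms4a7 results was not tested.

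After axotomy no marker passed the test. Lyz2 was 503, 509, 388 and 678 CPM in mice 1 to 4 of day 3 against 186, 87.7, 70.9 and 98.9 CPM in untreated facial nucleus, and the groups did not overlap. The ratio of means was 4.69 and the log2 fold change 2.23 ± 0.56 (unadjusted p = 0.000791, adjusted p = 0.213 by edgeR's test over 19319 genes). By DESeq2 the same change was called (log2 fold change 2.19, adjusted p = 0.0212), as it was by edgeR without the filter on low counts (2.21, adjusted p = 2.77e-06). On day 14 mice 1 and 3 stood at 635 and 569 CPM and mice 2 and 4 at 71.6 and 90.8 CPM, within the untreated range. The log2 fold change of day 14 was 1.62 ± 0.55 (adjusted p = 0.629), and 1.61 with an adjusted p of 0.0226 without the filter.

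Of the 6 markers tested after axotomy, edgeR called none on day 3, where it called 0.145% of genes, and none on day 14, where 0% of genes were called (1090 at an unadjusted p under 0.05, and 181 called by DESeq2). Lyz2 was the 1 marker with an unadjusted p under 0.05 on each day. Between the days none of the 6 was called and none had an unadjusted p under 0.05, at 0.0259% of genes called, and DESeq2 called none of them either. Dab2 had log2 fold changes of 1.67 ± 1.56 and 0.08 ± 1.52 on days 3 and 14, Ccr2 of 0.24 ± 1.20 and -0.38 ± 1.20, and Ly6c2 of 1.29 ± 2.46 and 0.58 ± 2.43. With errors of this size, changes of several fold in these sparse genes were not detectable.

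The injuries were compared directly by subtracting the axotomy day 3 effect from the demyelination effect. Lyz2 was the 1 of 9 markers called, with a difference of 3.59 ± 0.82 on the log2 scale (adjusted p = 0.0342; 0.423% of 26684 genes were called). This call was lost on leaving out any 1 of 12 of the 16 mice, namely demyelination mice 1 and 4, untreated corpus callosum mice 2, 3 and 4, all 4 day 3 mice and untreated facial nucleus mice 1, 2 and 4. The difference then stayed between 3.22 and 4.26 over the 16 omissions, with adjusted p-values between 0.0117 and 0.0998. Dab2 differed by 5.99 ± 1.75 (adjusted p = 0.0832; 0.00493 by DESeq2). Each injury had its own plate and its own control plate, and plate cannot be told apart from injury here either.

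Among the untreated regions Lyz2 was the marker with the clearest spread. Cortex mice held 47.0, 58.9, 46.5 and 16.3 CPM, and hippocampus mice from the same plate 46.9, 152, 159 and 233 CPM. Cerebellum was the most even region, at 183, 174, 188 and 154 CPM. Tested for any difference among the 6 regions, Lyz2 had an unadjusted p of 0.00174 and an adjusted p of 0.340, and none of the 7 tested markers was called, where 0.1% of genes were. DESeq2 called Lyz2 alone of them (adjusted p = 0.0233).

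Within plates, cortex against hippocampus gave a Lyz2 log2 fold change of -1.81 ± 0.46 (adjusted p = 0.478, and 0.00338 by DESeq2). There edgeR called none of the 7 markers and 0% of genes (2353 at an unadjusted p under 0.05, among them the markers Lyz2, Pf4 and F13a1, and 767 called by DESeq2). Cerebellum against facial nucleus gave 0.64 ± 0.45 for Lyz2 (adjusted p = 0.763 by edgeR). None of the markers was called there, and Cd163 alone had an unadjusted p under 0.05. Of all genes 0.00437% were called (2578 at an unadjusted p under 0.05 and 788 by DESeq2). Spinal cord against corpus callosum gave -0.49 ± 0.45 (adjusted p = 1.00), with none of the markers called, again Cd163 alone under 0.05 unadjusted, and 0% of genes called (1504 at an unadjusted p under 0.05 and 371 by DESeq2). DESeq2 called no marker in these last 2 comparisons. Per the series' design text the regions came from the same mice, which these tests did not use.

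Within cells, Lyz2 behaved differently from the other 8 markers. In demyelination 161 of 161 cells and in remyelination 129 of 129 cells had a Lyz2 read, and after each cell was thinned to 20000 reads, so that depth was equal, 97.3% ± 2.27 and 96.1% ± 3.78 of cells still did (mean ± SD over 4 mice). At axotomy day 3 the thinned share was 47.6% ± 4.00 and on day 14 it was 24.3% ± 7.88. Untreated regions lay between 9.0% ± 2.04 in cortex and 26.6% ± 4.88 in cerebellum. The median cell held 3990 CPM of Lyz2 in demyelination and 3761 CPM in remyelination, 13.5 CPM at axotomy day 3 and 0 in the 7 other groups. The range within cuprizone was wide, with upper quartiles of 7593 and 11615 CPM and highest cells of 95495 and 68654 CPM. Of the Lyz2 reads of demyelination, the top cell held 7.99% and the top 5 cells 25.3%.

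Lyz2 reads were also found in wells meant to hold no cell. Of 20 negative wells 6 had a Lyz2 read, 20 reads in all, of which 17 lay in the 4 negative wells of the cuprizone plate, with at most 7 in a well. These 4 wells held 2644 gene counts together. Cuprizone cells with a Lyz2 read had a median of 1855 and 1531 Lyz2 reads, and 96.6% ± 3.53 and 96.9% ± 4.29 of cells had at least 5. Among the other 8 markers 1 read, of Ccr2, was found in a negative well.

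**Figure D3:**
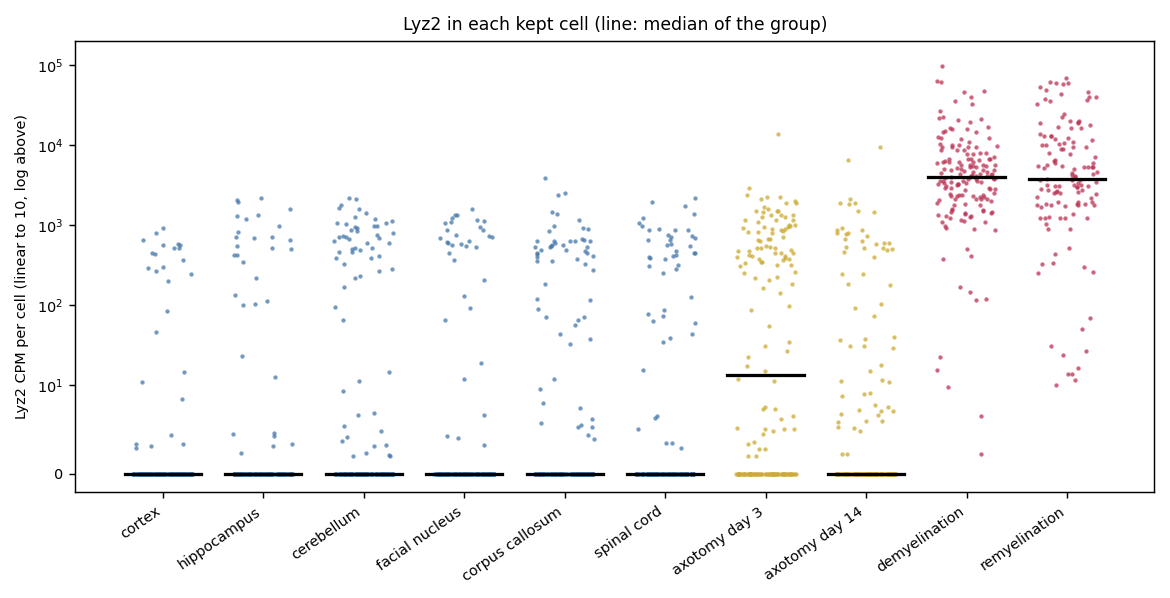
Lyz2 CPM in each kept cell (points; vertical axis linear up to 10 and logarithmic above) by group, with the median of the group as a line. The medians are 3990 CPM in demyelination, 3761 CPM in remyelination and 13.5 CPM at axotomy day 3, and lie at 0 elsewhere.

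Dab2 and Ms4a7 were carried by a minority of cells. Dab2 was read in 61 of 161 demyelination cells (37.9% ± 10.6 over mice, 23.7% ± 6.01 after thinning) and 20 of 129 remyelination cells (14.9% ± 11.5, thinned 10.4% ± 9.18). In the 8 other groups its thinned share lay between 1.22% ± 1.41 in corpus callosum and 5.03% ± 1.36 in hippocampus. Ms4a7 was read in 8 demyelination cells (thinned 2.47% ± 2.16) and 27 remyelination cells (21.2% ± 6.70 unthinned, 10.9% ± 5.55 thinned), and its thinned share was at most 2.35% ± 2.05 elsewhere. Within its carriers the signal was uneven. The top 5 cells held 63.6% of the Ms4a7 reads of remyelination and 44.5% of the Dab2 reads of demyelination. Shares were not tested.

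Most Ccr2 carriers in the untreated regions and at axotomy day 3 held few reads. It was read in 26 to 46 cells of each untreated region and in 39 cells at axotomy day 3, with a median of 2 to 4 reads in a cell with any. At axotomy day 14 it was read in 9 cells, with a median of 29 reads. The top 5 cells held 68.9% of the Ccr2 reads in cerebellum, 74.4% in corpus callosum and 86.9% in cortex. Unthinned shares were 15.1% ± 7.71 in spinal cord to 27.0% ± 9.63 in corpus callosum, and thinning brought them to 3.49% ± 4.03 and 9.36% ± 4.59. In demyelination 10 cells and in remyelination 7 cells had a read (thinned 1.20% ± 1.4 and 3.71% ± 2.77). The kept cells of these groups had median counts of 471755 and 383610 per cell against 201705 in corpus callosum. They had fewer detected genes, with medians of 2137 and 1517 against 2926. The part of depth and of detected genes in the Ccr2 shares was not tested. In the 46 corpus callosum cells with Ccr2, all had P2ry12 and Tmem119 reads, against 127 and 126 of the 127 cells without Ccr2.

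**Figure D4:**
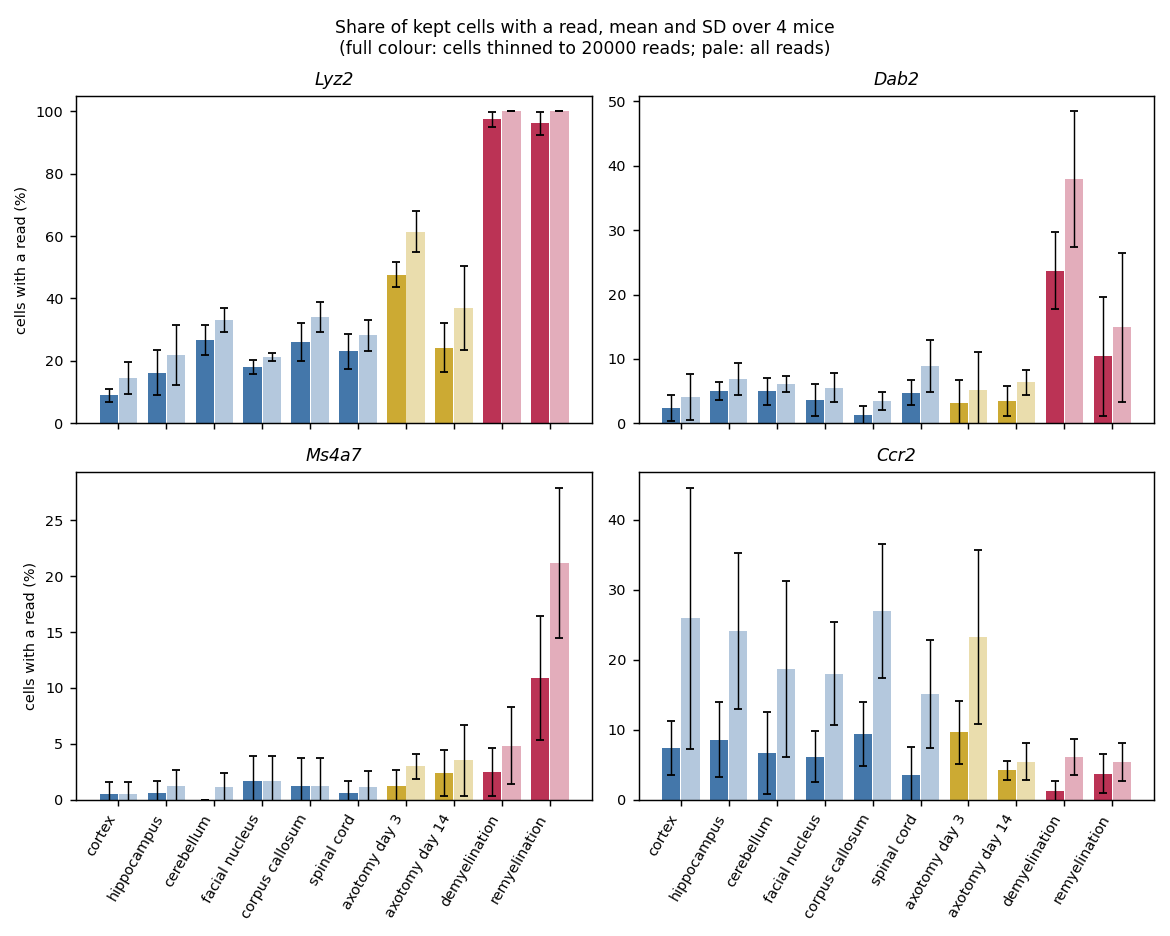
Share of kept cells with a read of Lyz2, Dab2, Ms4a7 and Ccr2 by group, as mean and SD over 4 mice (bars start at 0), after thinning each cell to 20000 reads (full colour) and with all reads (pale). Lyz2 is near 100% in both cuprizone groups, Dab2 is highest in demyelination, Ms4a7 in remyelination, and the Ccr2 bars shrink most on thinning.

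Few cells carried several of the markers at once. Of the 5 border macrophage markers, 1361 of 1644 cells had none, 245 had 1, 37 had 2, 1 had 3 and 0 had 4 or more. The 38 cells with at least 2 included 15 from demyelination (9.32% of its cells) and 7 from remyelination (5.43%), and the other groups had 0 to 5 each. With at least 5 reads asked of each marker, 19 cells had 2 and none had 3. The most frequent pairs were Dab2 with Pf4, in 14 cells (8.81% of Dab2 cells and 38.9% of Pf4 cells), 10 of them in demyelination, and Dab2 with Ms4a7, in 11 cells (6.92% and 18.97%). Mrc1 and Cd163, whose transcripts mark perivascular macrophages together, were read in 48 and 21 cells and in no cell jointly. Mrc1 and Ms4a7, the latter read in 58 cells, also had no joint cell. With so few carriers among 1644 cells, unrelated markers would also share few cells or none, so these zeros decide nothing. Of Ccr2, Ly6c2 and F13a1, 6 cells had 2 and none had 3, and 3 of the 8 Ly6c2 cells had Ccr2.

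Cells with a border or monocyte marker also carried microglia transcripts outside cuprizone. In the 8 other groups all 78 Dab2 cells, 41 Mrc1 cells, 23 Ms4a7 cells, 20 Cd163 cells, 15 Pf4 cells, 265 Ccr2 cells, 8 Ly6c2 cells and 22 F13a1 cells had reads of P2ry12, Tmem119 and Cx3cr1. Of the 425 Lyz2 cells there, 425, 421 and 424 had them. These 3 genes were read in 1353, 1348 and 1349 of all 1354 cells of these groups. Nearly any subset of the cells would therefore give such counts, and they do not set the carriers apart. In the cuprizone groups P2ry12 was read in 67 of 81 Dab2 cells and 26 of 35 Ms4a7 cells, beside 234 of all 290 cells. The 3 cells with most Ms4a7, all from remyelination, held 1316, 1192 and 1041 Ms4a7 reads beside 0, 1 and 1 P2ry12 reads and 753 to 898 detected genes. The cell with most Mrc1, with 1178 reads, held 938 P2ry12 reads and 319 Tmem119 reads in 1008 detected genes. A Dab2 cell of demyelination mouse 2 held 1412 Dab2 reads and 1 P2ry12 read, and the cell of mouse 3 with 1272 Dab2 reads held 91 P2ry12 and 2750 Cx3cr1 reads.

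Lyz2 levels were higher in Ms4a7 carriers of remyelination, and lower in Dab2 carriers of demyelination, than in the other cells of the same group. In remyelination, cells with an Ms4a7 read had a median of 7627 CPM of Lyz2 and cells without one 3355 CPM. The medians of carriers and other cells were 10231 and 4779 CPM in mouse 1, 5276 and 3128 in mouse 2, 9273 and 2944 in mouse 3, and 5406 and 2374 in mouse 4, so the carriers were higher in 4 of 4 mice. In demyelination, cells with a Dab2 read had a median of 3380 CPM of Lyz2 against 4329 CPM, and carriers were lower in 4 of 4 mice. Their Lyz2 medians were 4527, 3233, 2107 and 3787 CPM in mice 1 to 4, and those of cells without Dab2 were 5095, 4516, 3088 and 6007 CPM. In remyelination the 20 Dab2 cells came from 3 mice, and carriers were higher in 1 of them and lower in 2. For Pf4 in demyelination, the 17 carriers had a Lyz2 median of 5237 CPM against 3891 CPM in cells without Pf4. Pf4 carriers were lower in mouse 2, which had 1 such cell, and higher in the other mice. Carriers were set apart by these same cells' reads and were not tested.

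**Figure D5:**
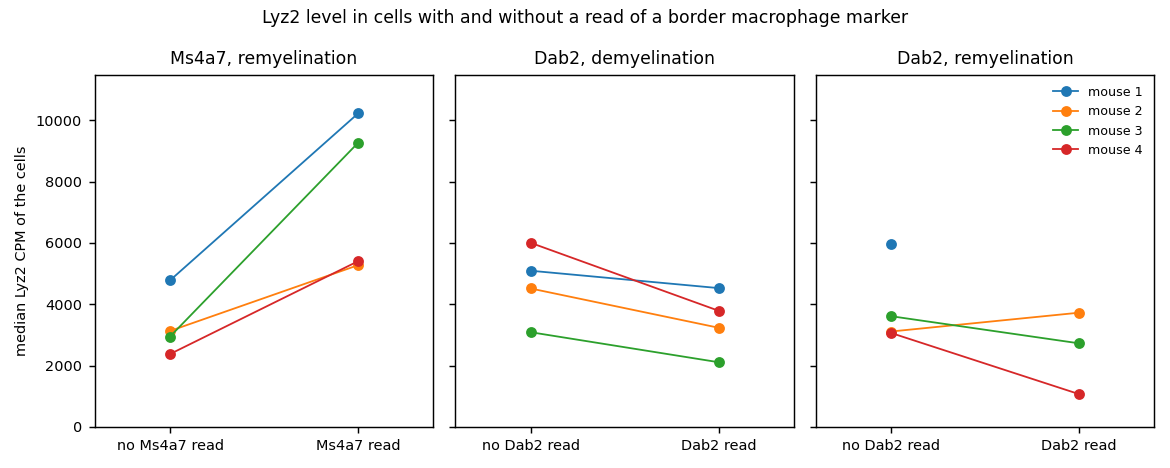
Median Lyz2 CPM of cells without and with a read of Ms4a7 in remyelination, of Dab2 in demyelination and of Dab2 in remyelination (vertical axis from 0), with 1 line per mouse; mouse 1 of remyelination had no Dab2 cell. Lines rise in 4 of 4 mice for Ms4a7 and fall in 4 of 4 mice for Dab2 in demyelination.

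Other genes were also counted in carriers and other cells, pooled over the mice of a group. Fn1 was read in 47 of 61 Dab2 cells of demyelination and 56 of 100 cells without Dab2, Colec12 in 19 and 23, and Lyz1 in 24 and 53. In remyelination Fn1 was read in 3 of 27 Ms4a7 cells and 31 of 102 others, and Lyz1 in 17 and 44. Dab2 cells of remyelination had a median of 2577 detected genes against 1430 in the cells without Dab2, while in demyelination the medians were 2323 and 2016. The mice gave unequal parts of the 2 kinds of cell. Demyelination mouse 4 gave 20 of the 61 Dab2 cells and 18 of the 100 cells without Dab2. Remyelination mouse 1 gave 9 of the 27 Ms4a7 cells and 20 of the 102 others. Detection of any gene also moves with the number of genes detected in a cell. The part of mouse and of detected genes in these shares was not tested.

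The genes most alike to each marker were found by Pearson's r of log2(CPM + 1), over the 40 sums for genes with a mean of at least 10 CPM (9364 genes) and over the 1644 cells for genes read in at least 20 cells (20648 genes). These values describe shared variation, which includes plate, group and depth, and carry no test. Over the sums Lyz2 was nearest to Fth1 (r = 0.968), Ftl1 (0.938) and Cstb (0.931), the chains of the iron store ferritin and the protease inhibitor cystatin B. Over cells it was nearest to Spp1 (0.645), Apoe (0.622) and Axl (0.586), genes of activated and lipid-handling microglia. Ms4a7 was nearest over sums to Apoc4 (0.839), Mmp12 (0.831) and Atp6v0d2 (0.827), and over cells to Lyz1 (0.278), Gpnmb (0.257) and the ferritin pseudogene Fth-ps3 (0.254).

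Dab2 was nearest over sums to the adhesion gene Alcam (0.797), the actin regulator Gsn (0.779) and Gm49339 (0.768), and over cells to Gm49339 (0.269), Fabp5 (0.264) and Lpl (0.264), the last 2 being genes of fatty acid handling. Pf4 was nearest over sums to Apoc1 (0.705), Gnas (0.703) and Gla (0.668), and over cells to Gpnmb (0.208), Cxcl14 (0.205) and Psat1 (0.188). Among the genes nearest to Ccr2 over cells were Gm26917 (0.164) and Malat1 (0.155), and over sums it was nearest to Armh3 (0.632), Taf15 (0.573) and Dpep2 (0.563). For Mrc1 the nearest over sums were Hip1 (0.552), Pitpna (0.518) and Itga4 (0.507) and for Ly6c2 the interferon-induced Ifit1 (0.544), H2-Q6 (0.540) and Gm26984 (0.517). For Cd163 they were Fat4 (0.547), Kctd3 (0.458) and Helz2 (0.450), and for F13a1 Gm17137 (0.517), Grin2b (0.474) and Rptor (0.452). Over cells the highest r of these 4 markers with any gene was 0.225, a weak relation in sparse counts.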

How the data were processed

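Whole-transcript Smart-seq2 libraries, which carry no molecular identifiers and no strand, were made from 1920 single wells, 20 of them negative. The deposited table holds raw counts per gene and well. Reads were aligned by STAR (2.5.2b) to GRCm38 and counted by featureCounts (1.5.1), per the submitters' processing notes. GENCODE vM21 gave symbols for 48349 of 48709 gene entries. No 2 wells held the same values, and no column was left unused.

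Wells with at least 20000 gene counts and 500 genes, under 25% mitochondrial and under 50% spike-in counts were kept; no negative well passed. Counts were summed per mouse and group, and replicates were no duplicates: over 60 pairs, chi-square divided by its degrees of freedom was at least 67.1. Sums were tested with edgeR 4.0.16 in R 4.3.3 (TMM scaling, filterByExpr with a minimum count of 10 and total of 15, robust quasi-likelihood F test, Benjamini-Hochberg threshold 0.05). Fits for regions, axotomy and cuprizone each used their own groups with untreated tissue. The script was tested on simulated data. Alternatives were DESeq2 1.42.0, upper-quartile scaling, no count filter, no cell filter, all groups in 1 fit, a replicate block, equal weight per cell and leaving out each mouse. Labels name replicates but not separate animals, so p-values measure the spread between these samples, and floors and zero limits (3 counts) cover counting error only. Shares were taken after thinning to 20000 reads. Same-numbered replicates were not paired. Promoter stretches came from RefSeq (GRCm38.p6), matched by symbol for 9 of 9 markers, and shared transcript stretches from GENCODE. Named genes are all 9 markers, genes called in the other lists (the 6 largest where more passed), and 3 nearest genes per marker. The markers and lists were chosen with earlier results of these data known. Some genes of the lists are not reported here.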

Additional observations from a re-analysis of the deposited data

Results flagged for a closer look

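Among 79 combinations of a marker and a group with reads, 28 had 1 mouse whose gap to the nearest other mouse took a larger share of the group's range than Dixon's critical value. Chance flags about 1 in 20 groups, and in 15 of the 28 the other mice had no read at all, so that any read was enough.

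With the other mice at 0, the single mouse held 0.859 CPM of Mrc1 in cortex and 0.144 in demyelination, 0.787 CPM of Ms4a7 in cortex and 1.73 in corpus callosum, and 0.152 CPM of Cd163 in demyelination. Pf4 stood alone at 1.58 CPM in hippocampus, 3.51 in cerebellum, 0.925 in spinal cord and 2.33 at axotomy day 3. Ly6c2 did so at 2.63 CPM in facial nucleus, 2.65 in corpus callosum, 1.2 in spinal cord and 3.99 at axotomy day 14, and F13a1 at 0.441 CPM at axotomy day 14 and 0.563 in remyelination.

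Where others had reads too, 1 mouse stood high for Mrc1 in cerebellum (2.37 CPM) and at axotomy days 3 and 14 (6.56 and 6.76), for Dab2 at axotomy day 14 (15.6), and for Cd163 in cortex (3.22), corpus callosum (1.65) and at axotomy day 14 (14.9). The same held for Pf4 at axotomy day 14 (7.76 CPM), Ccr2 in demyelination (28.7) and remyelination (57.0), and F13a1 in cerebellum (6.47) and spinal cord (1.71). In facial nucleus 1 mouse was low for Dab2, at 0.954 CPM.

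The effect of demyelination on Lyz2 exceeded that of axotomy day 3 by 3.59 on the log2 scale in a test of the difference itself. The 20 negative wells, which no comparison used, held 20 Lyz2 reads.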

How the results depend on the processing

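By DESeq2 the number of markers called was 1 for the regions, 1 for cortex against hippocampus, 1 for axotomy day 3 (Lyz2 each time), 4 for demyelination (Mrc1, Ms4a7, Dab2 and Lyz2), 1 for remyelination against demyelination (Mrc1) and 2 for the difference between injuries. Without the filter on low counts it was 1 for each axotomy day (Lyz2) and 3 between the cuprizone phases (Mrc1, Ms4a7 and Lyz2). Leaving out 1 mouse gave 0 to 1 markers for the difference between injuries and 2 to 3 for demyelination. Dab2 and Lyz2 in demyelination, and these with Ms4a7 in remyelination, were called in all 7 settings tried and under all 8 omissions of a mouse. The replicate block left the marker counts at 2, 3 and 1 for demyelination, remyelination and the difference between injuries and at 0 elsewhere. Same-numbered replicates deviated together with r between -0.00095 and 0.054 among the regions (mean 0.020, and -0.0067 for other numbers). The range was -0.014 to 0.027 in the axotomy set and -0.0051 to 0.023 in the cuprizone set. The numbers were not taken as pairs, although the design text gives the regions as coming from the same mice. Without thinning, the share of cells with a read, averaged over the groups, was 16.9% for Ccr2 (6.03% thinned) and 45.1% for Lyz2 (38.4%). Asking for 5 reads left 19 of 38 cells with several border markers.

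Over all genes, calls by edgeR, by DESeq2 and without the filter were 725, 1945 and 559 for demyelination, 438, 1589 and 468 for remyelination, 6, 596 and 114 between the phases, 28, 347 and 92 for axotomy day 3, 0, 181 and 16 for day 14, 5, 234 and 83 between the days, 23, 204 and 57 for the regions, and 113, 3310 and 93 for the difference between injuries. Fitted with all 10 groups, demyelination had 1184 calls, remyelination 747 and the phases 101. Under the block these were 447, 320 and 5, and the regions 39. Equal weight per cell gave 15 for axotomy day 3. Leaving out any 1 mouse gave 310 to 384 for demyelination, 256 to 385 for remyelination, 3 to 8 between the phases, 6 to 13 for the regions and 0 to 20 between the axotomy days, where day 14 mouse 4 gave the 20. Axotomy day 3 had 16 calls without facial nucleus mouse 1 and 18 without its own mouse 2, day 14 had 2 and 3 without its mice 3 and 4, and the difference between injuries 70 and 71 without facial nucleus mice 3 and 4. Cortex against hippocampus had 767 calls by DESeq2, cerebellum against facial nucleus 788 and spinal cord against corpus callosum 371.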

Other observations

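Of the microglia list, 4 genes differed between the injuries in the same test as Lyz2, all of them lower in the demyelination effect than in the axotomy day 3 effect. Tmem119 differed by -2.40 ± 0.36 on the log2 scale (adjusted p = 3.5e-05 by edgeR), Siglech by -1.87 ± 0.33, P2ry12 by -1.81 ± 0.32 and P2ry13 by -1.51 ± 0.36 (adjusted p = 0.0324). Between the cuprizone phases Sparc, a matrix protein gene of microglia, was the one gene of the lists called, at 8022 ± 1401 CPM in demyelination and 2659 ± 715 CPM in remyelination, with 4691 ± 183 CPM in untreated corpus callosum.

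Ms4a6c, the family member of Ms4a7, was 105 ± 42.7 CPM at axotomy day 3 and 9.87 ± 5.88 CPM in untreated facial nucleus, with every day 3 mouse above every untreated mouse (log2 fold change 3.43 ± 0.80, adjusted p = 0.150), a change that did not pass the test.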
